A study of Mus musculus with 6 samples.

Results

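Adhesion G protein-coupled receptors, the genes named Adgr in mouse, were followed in primary hippocampal cells after knockdown of Diras2, a small GTPase of the Ras family. A gene was taken as a member when an array probe set carried that 1 gene symbol and no other, and its brightest probe set over the 6 arrays stood for it. This gave 24 members among the 22180 genes tested, and 9 of them had a mean log2 level of at least 6 and are called well expressed here. Adgre5, Adgrf3 and Adgrg5 were not analysed here. Both groups were cells from hippocampi of mouse embryos at day 18 that received AAV1/2, a vector made from adeno-associated virus, 7 days after they were seeded and gave RNA a further 7 days later. In 3 samples the vector carried the Diras2 knockdown construct, and in 3 controls a scrambled one. The strain, the number of litters and the promoter of the construct are not given in the sources used here, and the labels name no second knockdown construct. Each sample was read on 1 array, so precision is limited by how many arrays there are. Replicates are biological per the labels, which do not say whether litters or cultures were separate, and the p-values rest on the spread among these 6 samples.

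Adhesion receptors have a very long extracellular part with adhesion domains, followed by a domain in which most of them cut themselves during maturation, and the membrane helices of a G protein-coupled receptor. A short stretch next to the cut can act as a tethered agonist once the extracellular part is pulled away by a ligand on another cell or in the matrix. In the hippocampus they are known mainly for synapses: the latrophilins (Adgrl) and the brain-specific angiogenesis inhibitors (Adgrb) sit at synaptic membranes and bind partners on the facing cell.

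The log2 level of Diras2 was 10.03 ± 0.24 (SD, n = 3) in control arrays against 6.49 ± 0.59 in knockdown arrays, and the exact two-sided permutation p was 0.1, the smallest that 3 against 3 arrays allow. Array medians lay between 4.03 and 4.11. All 6 neuron markers had mean levels of at least 8.70, with 1 of them lower after knockdown, Snap25 (log2 difference -0.51, adjusted p 0.0471), and 7 of 8 astrocyte markers lay above 6. Markers of microglia (9 genes) and of endothelium (6 genes) all lay below 6. Csf1r was the highest of the former at 5.45 and Kdr of the latter at 5.72. Of 5 markers of fibroblasts and meninges 3 lay below 6, and 0 passed. The brightest of them, Dcn, was at 8.90 ± 1.42 (SD, n = 3) in controls and 8.95 ± 0.66 after knockdown. Their summed level (log2 of the sum of linear values) ran from 8.41 to 10.11 in the control and from 9.06 to 9.70 in the knockdown.

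Differences among the receptors went both ways. With limma and adjustment over all genes, 1 of the 24 rose, Adgra3, where 4.17% of all genes tested rose. Another, Adgrg6, fell, where 3.64% of all genes fell, and 22 did not pass. In either direction 7.80% of all genes were called, and the members' share was 8.33%. Among the 9 well-expressed members 1 was called, a higher one, where 15.9% of all genes at that level were called and 8.66% were higher. Among the 15 dim members 1 was called, a lower one, where 2.25% of dim genes were called and 1.16% were lower. Log2 differences (knockdown minus control throughout) lay above 0 for 12 members and below 0 for 12, with a median of 0.03 against 0.00 over all genes tested. The median of the well-expressed members was 0.15 against 0.03 over all genes at that level. The groups did not overlap for 7 members, where 25.5% of all genes did not overlap, and for 3 of the 9 well-expressed ones, where 41.3% of genes at that level did not. Neither call held in every fit with 1 array left out, and such fits have fewer samples. With any 1 of the 6 arrays left out 0 members rose, and 0 fell unless the array left out was control replicate 1. At an unadjusted p under 0.05, limma then had 1 to 2 members higher and 3 to 5 lower, against 2 and 3 with all arrays. Those 5 of 24 with all arrays are 20.8%, where 20.9% of all genes tested had such a p; with 1 array left out it was 16.7% to 29.2% of members and 16.9% to 21.2% of all genes. In bulk RNA, fewer cells of a type and less RNA per cell cannot be told apart.

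**Figure D1:**
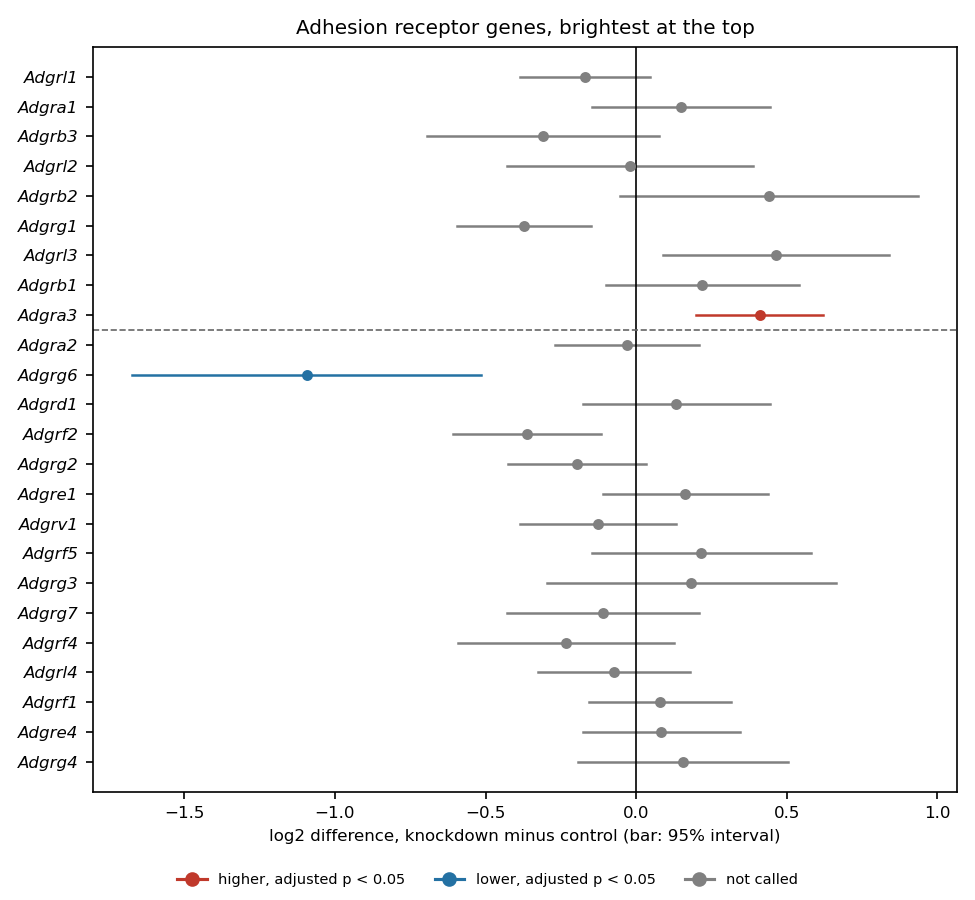
Log2 difference between knockdown and control for the 24 adhesion receptor genes, in order of mean level, with the unadjusted 95% interval of the limma fit as a bar; the dashed line separates the 9 members with a mean of at least 6 from the 15 dim ones. Adgra3 (0.41) and Adgrg6 (-1.09) are the called genes, and the other points lie between -0.37 and 0.46.

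Adgra3, also known as Gpr125, is a receptor tied to Wnt and planar cell polarity signalling. Its log2 levels were 7.71, 7.63 and 7.63 in knockdown replicates 1 to 3 and 7.24, 7.29 and 7.21 in control replicates 1 to 3. The lowest knockdown array thus lay above the highest control array, and both groups were tight. The mean rose from 7.25 ± 0.04 to 7.66 ± 0.05 (SD, n = 3), 1.33-fold. The log2 difference was 0.41 (SE 0.09; limma adjusted p 0.0324). The difference lay between 0.38 and 0.43 under 16 alternative settings. Some of these, such as the replicate block, the intensity trend and the other adjusted p threshold, cannot change it. The adjusted p ran from 0.0147 to 0.112, being 0.0714 to 0.0997 with 1 array left out and 0.112 with RNA integrity as a covariate. Adgra3 was also the dimmest member above the level of 6, and Adgra2 the brightest below it at 5.84.

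Its relatives did not pass the test. Adgra1, a brain receptor of poorly known function, had knockdown levels of 9.60, 9.72 and 9.75 and control levels of 9.29, 9.64 and 9.69. Those groups overlapped, and the log2 difference was 0.15 (95% interval -0.15 to 0.45). Adgra2, or Gpr124, works with Reck in the Wnt7 response of brain endothelium. It had a log2 difference of -0.03 (95% interval -0.27 to 0.21). Of its partners Reck had a log2 difference of -0.05, Wnt7a one of 0.22 and Wnt7b one of 0.18, and 0 of the 3 passed.

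Adgrg6, or Gpr126, is the receptor that raises cyclic AMP in Schwann cells to start myelination. Its log2 levels were 4.01, 3.88 and 4.02 in knockdown replicates 1 to 3 and 4.46, 5.12 and 5.61 in control replicates 1 to 3. The groups did not overlap; the controls were spread out, while the knockdown arrays lay together near the array medians. The control mean was 5.06 ± 0.58 and the knockdown mean 3.97 ± 0.08 (SD, n = 3), so that Adgrg6 fell by 1.09 on the log2 scale (SE 0.25; limma adjusted p 0.0373). Whether the knockdown level lay above background was not tested, so the 2.13-fold difference may be understated. RNA integrity numbers fell, at 9.2, 9 and 8.8, over control replicates 1 to 3, while Adgrg6 rose. In knockdown replicates 1 to 3 they were 9, 9.3 and 9.2. A link between these numbers and the level was not tested on its own, but a fit with them as a covariate follows. The adjusted p was 0.0204 with the replicate number as a block. It ran from 0.00422 to 0.134 over 15 alternatives, was 0.0506 to 0.134 without any 1 array other than control replicate 1, and rose to 0.0892 with the RNA integrity covariate, where the difference was -0.77.

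Adgrg1, or Gpr56, binds collagen III and transglutaminase 2 and acts in cortical development and in oligodendrocyte precursors. The 3 knockdown levels, 8.35, 8.43 and 8.47, all lay below the 3 control levels, 8.74, 8.88 and 8.75. The mean was 8.42 ± 0.06 against 8.79 ± 0.08 (SD, n = 3), a log2 difference of -0.37 (95% interval -0.60 to -0.15) with an adjusted p of 0.0557, just short of the threshold. The block on replicate number gave 0.0518. Over the alternatives it ran from 0.0221 to 0.198, and it passed with quantile normalisation (0.0485), with dim genes left out (0.0262), with an intensity trend (0.0371) and with array weights (0.0221). Neither of its ligand genes passed: Col3a1 had a log2 difference of 0.30 and Tgm2 one of -0.07.

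Adgrg1 is also made by glia and microglia. Of 7 measured oligodendrocyte lineage markers 1 rose, Pdgfra, and 0 fell, and their summed level (log2 of the sum of linear values) ran from 9.48 to 10.64 in the knockdown and from 9.59 to 9.92 in the control. Of 9 microglia markers 0 passed, and the summed level ran from 7.67 to 7.70 in the knockdown and from 7.71 to 8.02 in the control. Of 8 astrocyte markers 0 passed, with summed levels of 11.73 to 12.24 and 11.95 to 12.33. The part of these cells, or of fibroblasts, in the Adgrg1 and Adgrg6 values was not tested.

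**Figure D2:**
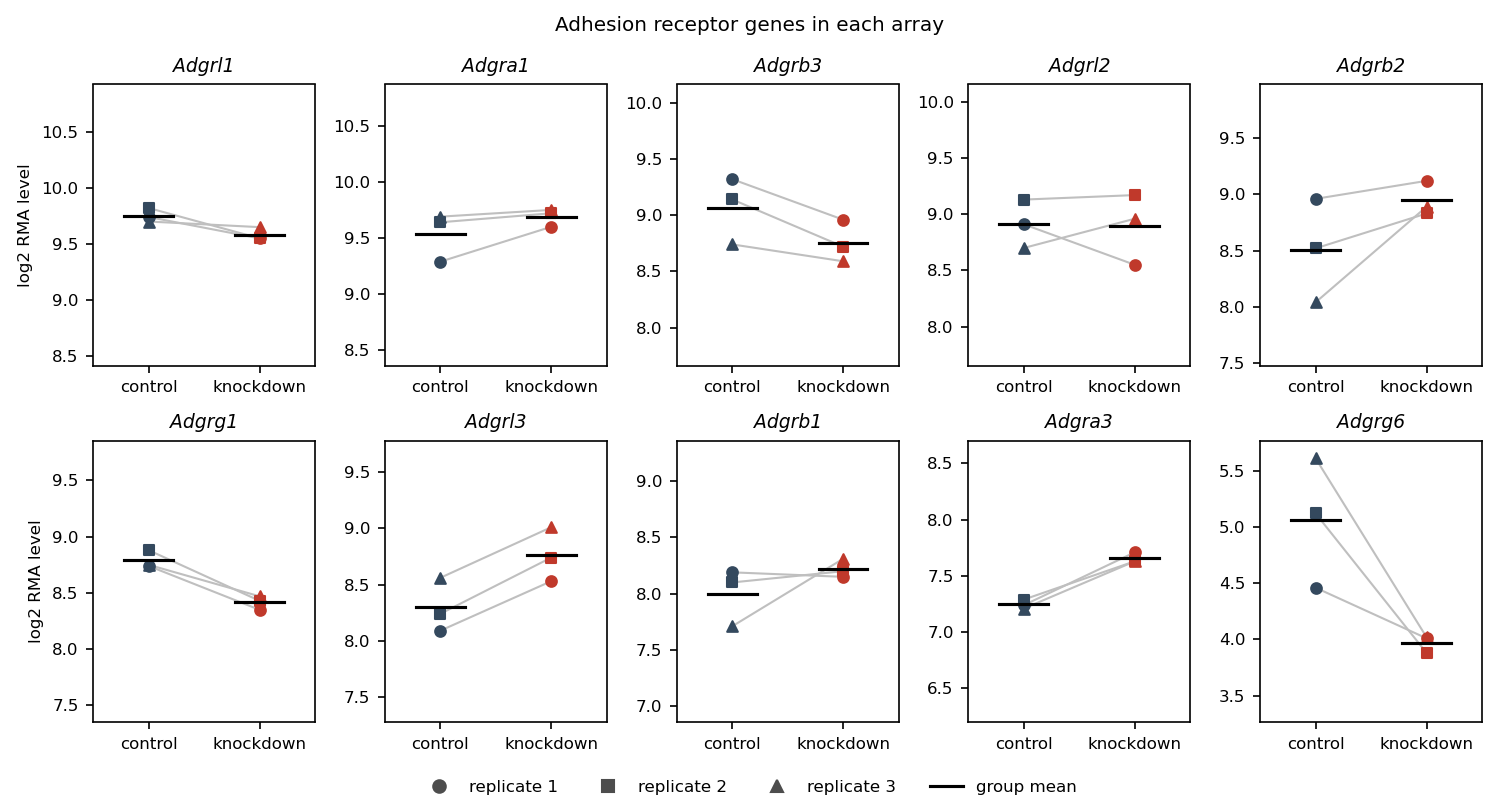
Log2 RMA level of the 9 well-expressed adhesion receptor genes and of Adgrg6 in each array, with grey lines joining arrays of the same replicate number and black bars for group means; every panel spans the same number of log2 units. The groups are apart for Adgra3, Adgrg1, Adgrl1 and Adgrg6, and the 3 lines of Adgrl3 run in parallel.

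The latrophilins Adgrl1 to Adgrl3 bind teneurins and Flrt proteins across the synapse. Among the 24 members, each by its brightest probe set, Adgrl3 had the largest positive difference. With a gene's probe sets averaged it had 0.27, below Adgrb2 (0.44) and Adgra3 (0.41). Without control replicate 1 it had 0.36, below Adgrb2 (0.67) and Adgra3 (0.41), and without knockdown replicate 3 it had 0.34, below 0.47 and 0.42. Adgrb2 also had the larger difference without knockdown replicate 2 (0.50 against 0.47) and without control replicate 2 (0.447 against 0.435). The knockdown levels of Adgrl3 were 8.53, 8.74 and 9.01 and its control levels 8.09, 8.24 and 8.56. The groups overlapped, since control replicate 3 was above knockdown replicate 1, yet the 3 same-numbered pairs differed by 0.44, 0.50 and 0.45. The log2 difference was 0.46 (95% interval 0.09 to 0.84), and limma gave an adjusted p of 0.145. With the replicate block it was 0.0229, and Adgrl3 became the 1 further member called, where 11.7% of all genes and 22.8% of well-expressed genes were called with the block. With array weights the adjusted p was 0.0473, and over all alternatives it ran from 0.0229 to 0.355.

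Adgrl1 had knockdown levels of 9.55, 9.55 and 9.65 and control levels of 9.74, 9.82 and 9.70. The groups did not overlap, but the log2 difference was small, -0.17 (95% interval -0.39 to 0.05, adjusted p 0.368). Adgrl2 had knockdown levels of 8.55, 9.17 and 8.96 and control levels of 8.91, 9.13 and 8.70. They were intermixed, with a log2 difference of -0.02 (95% interval -0.43 to 0.39). Adgrl4, an endothelial relative, was dim at a mean of 3.01 and had a log2 difference of -0.07.

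Changes of related receptors were also compared within arrays, for 7 pairs of well-expressed relatives chosen after their values were seen. The level of Adgrl3 relative to Adgrl1 was higher in the knockdown by 0.63 on the log2 scale, and all 3 knockdown arrays lay above all 3 controls (exact two-sided permutation p 0.1, the smallest possible, and 0.233 after Benjamini-Hochberg adjustment over the 7). Adgrb2 relative to Adgrb3 was higher by 0.75 and Adgrb1 relative to Adgrb3 by 0.53, with the same p-values. For the other 4 pairs the groups overlapped. How often the groups do not overlap for pairs of other genes was not computed. Of single genes with a mean of at least 6, 41.3% did not overlap. Adgrb2 and Adgrb1 were both set against Adgrb3, so their pairs are not independent.

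Ligands of the latrophilins were among the genes that fell. Flrt2, a guidance and adhesion protein, had knockdown levels of 7.02, 7.58 and 7.41 and control levels of 8.48, 8.85 and 8.57. These groups were far apart. The log2 difference was -1.30 (SE 0.17; adjusted p 0.00347), called under all alternatives at 0.00126 to 0.0224. Tenm1, a teneurin, had knockdown levels of 7.16, 6.98 and 7.36 and control levels of 7.77, 7.65 and 7.82. It fell by 0.58 on the log2 scale (SE 0.12, adjusted p 0.0265). Its call was lost without any 1 array except knockdown replicate 3 (0.0609 to 0.0950), and RNA integrity as a covariate ended it too (0.115). The other members of these families did not pass: log2 differences were -0.21, -0.25 and -0.27 for Tenm2, Tenm3 and Tenm4, and -0.26 and 0.07 for Flrt1 and Flrt3.

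Nrxn3 and Cntn6, which encode a presynaptic neurexin and a contactin reported as partners of Adgrl1, fell too. Nrxn3 had knockdown levels of 9.21, 9.16 and 8.95 and control levels of 9.67, 10.31 and 10.02, which did not overlap. The log2 difference was -0.89 (SE 0.17, adjusted p 0.0163), and the call ended without knockdown replicate 2 or 3 or control replicate 2 (0.0573 to 0.0704). Cntn6 had knockdown levels of 4.71, 5.51 and 5.06 and control levels of 5.78, 6.43 and 5.89, which did not overlap either. Its log2 difference was -0.94 (SE 0.23), with an adjusted p of 0.0473 that became 0.0744 to 0.156 without knockdown replicate 1 or 3 or control replicate 2 or 3. Nrxn2, a second neurexin, had a log2 difference of -0.04. Unc5c, a netrin receptor of the family that joins Flrt and latrophilin complexes, rose. Its knockdown levels of 8.12, 7.87 and 8.17 all lay above its control levels of 7.37, 7.56 and 7.68. This gave a log2 difference of 0.52 (SE 0.13, adjusted p 0.0457), and its call was lost without any 1 array except control replicate 3 (0.0612 to 0.152). Unc5a, Unc5b and Unc5d had log2 differences of -0.22, -0.37 and -0.14, and among them Unc5b passed with the replicate block (0.0476).

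Markers of inhibitory neurons were set beside these changes. Of 5 measured 1 fell, Lhx6, a transcription factor of interneurons, from 8.77 ± 0.27 to 7.57 ± 0.27 (SD, n = 3; limma adjusted p 0.00630), 0 rose, and the median log2 difference was -0.45. The other 4 did not pass, with log2 differences of 0.11 for Gad1, -0.45 for Gad2, -0.22 for Slc32a1 and -0.60 for Dlx2. The summed level of the 5 ran from 10.37 to 10.84 in the knockdown and from 10.72 to 11.29 in the control, so the groups overlapped. Of 4 measured markers of excitatory neurons 0 passed, and their median log2 difference was 0.205. The part of inhibitory neurons in the falls of Flrt2, Tenm1, Nrxn3, Cntn6, Elmo1 and Celsr2 was not tested.

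The Adgrb receptors bind C1q-like proteins and Nogo receptors and signal through Elmo and Dock proteins to Rac. Of the 3 receptors 0 passed by limma, and 0 had an unadjusted p under 0.05. Adgrb2 had knockdown levels of 9.12, 8.83 and 8.89 and control levels of 8.96, 8.52 and 8.04. Control replicate 3 was low and the groups overlapped. The log2 difference was 0.44 (95% interval -0.06 to 0.94). It was 0.21 without that array and 0.67 without control replicate 1 (adjusted p 0.0624), and Adgrb2 was not called in either fit. Adgrb3 had knockdown levels of 8.96, 8.72 and 8.59 and control levels of 9.32, 9.14 and 8.74. It was lower in each same-numbered pair, by 0.36, 0.42 and 0.15, with a log2 difference of -0.31 (95% interval -0.69 to 0.07), which was -0.18 without control replicate 1 and -0.47 without control replicate 3. Adgrb1, which also takes part in the engulfment of dying cells, had knockdown levels of 8.15, 8.20 and 8.31 and control levels of 8.19, 8.10 and 7.71. Only control replicate 3 stood apart, and the log2 difference of 0.22 became 0.08 without it.

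Among their partners, Elmo1 fell. Its knockdown levels were 5.87, 6.33 and 6.47 and its control levels 6.73, 7.29 and 7.75, without overlap. Elmo1 fell by 1.03 on the log2 scale (SE 0.26; adjusted p 0.0494, and 0.00375 in the blocked fit). The call was lost without any 1 array except control replicate 1 (0.0906 to 0.160). Elmo2 had a log2 difference of 0.55 and did not pass (0.0988), but did with the block (0.0171). Dock1 had one of -0.03. C1ql1 and C1ql2 had log2 differences of 0.52 and 0.43 (adjusted p 0.115 and 0.403), and C1ql1 passed with the block (0.0449). C1ql4, dim at a mean of 2.85, had a log2 difference of -0.11 and did not pass, and C1ql3 was not measured. The Nogo receptor genes Rtn4r, Rtn4rl1 and Rtn4rl2 had 0.38, 0.30 and -0.45 and did not pass.

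Across the whole partner list, 63 of 68 genes were measured, 2 rose and 6 fell, together 12.7% against 7.80% of all genes and 15.9% of genes with a mean of at least 6. Of 32 ligands and co-receptors 2 rose and 4 fell, with a median log2 difference of -0.11. The second that rose was Cd55, the complement regulator that binds Adgre5. Its knockdown levels were 5.56, 5.71 and 5.83 and its control levels 4.65, 5.27 and 4.67, without overlap. The log2 difference was 0.84 (SE 0.18, adjusted p 0.0267), and its call was lost without knockdown replicate 2 or 3 or control replicate 1 or 3 (0.0633 to 0.101). Of 28 effectors and scaffolds 1 fell, Elmo1, and the median was 0.06. With the replicate block 7 genes of the list rose and 8 fell, where the blocked fit called 11.7% of all genes and 22.8% of those with a mean of at least 6. Among those that rose were Gna12 and Gna11, G protein subunits with log2 differences of 0.41 and 0.43. Their adjusted p-values were 0.0834 and 0.0629 without the block and 0.0460 and 0.0341 with it. Arrb2 rose and Shank2 fell with the block, at log2 differences of 0.40 and -0.50. For these the adjusted p-values were 0.0509 and 0.0586 without the block and 0.0452 and 0.0241 with it. The count that rose was 0 to 2 and the count that fell 1 to 5 with 1 array left out.

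The Celsr genes encode adhesion receptors of the same class that carry cadherin repeats and act in planar cell polarity and axon guidance. Celsr2 fell: its knockdown levels were 8.18, 7.76 and 8.17 and its control levels 8.71, 8.95 and 8.80. The groups were apart, with a log2 difference of -0.78 (SE 0.14, adjusted p 0.0139). It was no longer called once control replicate 2 was left out (0.0700) or RNA integrity was a covariate (0.0691). Neither Celsr1, with a log2 difference of -0.06, nor Celsr3, with 0.12, passed.

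**Figure D3:**
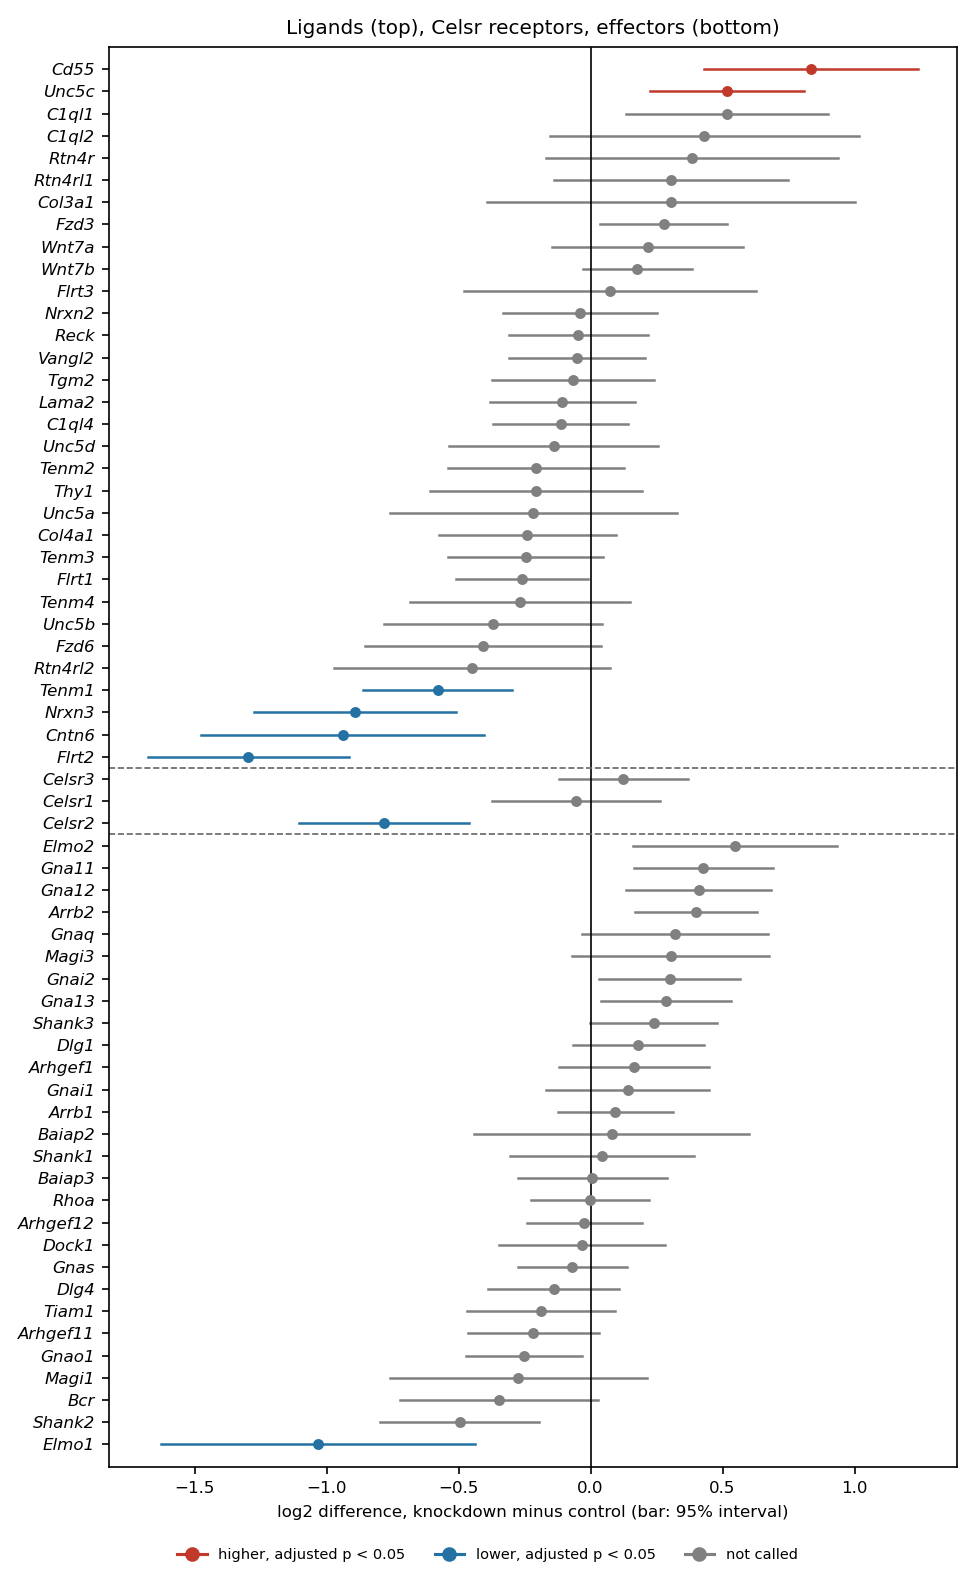
Log2 difference between knockdown and control for 63 genes of known partners, with unadjusted 95% intervals: ligands and co-receptors at the top, the 3 Celsr receptors in the middle and effectors and scaffolds at the bottom, divided by dashed lines. Flrt2 (-1.30) lies farthest to the left and Cd55 (0.84) farthest to the right.

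The 15 dim members had mean levels of 2.92 to 5.84 and, apart from Adgrg6, log2 differences between -0.36 and 0.22. Their groups did not overlap for 4 genes, where 14.7% of dim genes did not overlap. Besides Adgrg6 these were 3 that did not pass. Adgrf2 had knockdown levels of 3.63, 3.81 and 3.56 and control levels of 4.11, 4.02 and 3.96, a log2 difference of -0.36 with an adjusted p of 0.0850. Adgrg2, an epididymal receptor, had knockdown levels of 3.63, 3.80 and 3.66 and control levels of 3.97, 3.83 and 3.88 (adjusted p 0.315). Adgre1, which encodes a surface antigen of macrophages, had knockdown levels of 3.95, 3.62 and 3.59 and control levels of 3.54, 3.56 and 3.57 (adjusted p 0.516). For these 3 the gaps between the groups were narrow and all values lay near the array medians or below. Adgrv1, the Usher syndrome receptor of hair cell stereocilia, Adgrf5, known from lung surfactant control, and Adgrd1 had log2 differences of -0.13, 0.22 and 0.13. Adgrf1, a receptor for synaptamide in developing neurons, was dim at 2.96 with a log2 difference of 0.08, and the remaining Adgre4, Adgrf4, Adgrg3, Adgrg4 and Adgrg7 lay at means of 2.92 to 3.26.

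The start-site sequences of the members were then set beside their levels, as a feature that the choice of genes did not use. RefSeq windows (GRCm38.p6) of 300 bases, from 250 before to 50 after an annotated start, were found for 19 of the 24 genes. Adgra2, Adgrb1, Adgrd1, Adgre1 and Adgrf2 had no entry. CpG density was given as the observed over the expected number of CG dinucleotides, and a gene was counted by its densest window. A ratio of at least 0.6 was found in 6 of 8 well-expressed members and in 2 of 11 dim ones, where 83.1% of the 7202 genes with a window and a mean of at least 6 had it and 27.6% of the 9716 with a window and a lower mean. The GC box GGGCGG, on either strand, occurred in 5 of the 8 and 5 of the 11, against 72.3% and 32.8% of the genes with a window at those levels. These are descriptions of the windows, and other starts of a gene may be used in these cells.

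The windows of both called members, of Adgrl3 and of Adgrg1 are printed, from 5′ to 3′ on the gene's strand, because the first 3 are CpG-dense and the last, of a well-expressed member, is not; capitals mark CG dinucleotides. Adgra3, on the minus strand at chr5:50058947-50059246, had 34 CG in its window and a ratio of 0.89, and Adgrg6, on the minus strand at chr10:14544987-14545286, had 38 and 1.08, the highest ratio of all members. The called genes, 1 higher and 1 lower, both had CpG-dense windows, and Adgrg6 had one although it was dim. Such windows were also found for Adgrl1, Adgra1, Adgrb2, Adgrb3, Adgrl3 and Adgrg2, which were not called. The first of 3 windows of Adgrl3, on the plus strand at chr5:81020321-81020620, had 40 and 0.94. Adgrg1 was well expressed with few CG: the first of its 2 windows, on the plus strand at chr8:94976859-94977158, had 7 and 0.25.
Adgra3: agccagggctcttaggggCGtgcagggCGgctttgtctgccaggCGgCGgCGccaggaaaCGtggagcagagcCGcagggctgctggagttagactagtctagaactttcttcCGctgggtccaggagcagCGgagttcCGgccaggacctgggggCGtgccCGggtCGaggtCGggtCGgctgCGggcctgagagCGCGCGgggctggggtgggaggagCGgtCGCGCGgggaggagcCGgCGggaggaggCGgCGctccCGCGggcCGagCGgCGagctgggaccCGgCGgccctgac
Adgrg6: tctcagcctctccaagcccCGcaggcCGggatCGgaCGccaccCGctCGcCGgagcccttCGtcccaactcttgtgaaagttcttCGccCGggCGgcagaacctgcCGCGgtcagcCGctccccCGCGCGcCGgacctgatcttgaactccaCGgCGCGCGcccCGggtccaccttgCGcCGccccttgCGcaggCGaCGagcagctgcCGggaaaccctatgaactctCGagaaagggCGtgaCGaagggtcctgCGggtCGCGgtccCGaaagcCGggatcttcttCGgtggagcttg
Adgrl3: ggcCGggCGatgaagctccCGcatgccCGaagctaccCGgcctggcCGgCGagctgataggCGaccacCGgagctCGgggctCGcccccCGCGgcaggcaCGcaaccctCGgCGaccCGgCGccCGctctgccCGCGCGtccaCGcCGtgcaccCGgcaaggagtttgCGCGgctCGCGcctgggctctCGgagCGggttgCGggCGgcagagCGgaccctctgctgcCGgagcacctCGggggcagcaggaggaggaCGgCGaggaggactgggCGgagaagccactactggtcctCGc
Adgrg1: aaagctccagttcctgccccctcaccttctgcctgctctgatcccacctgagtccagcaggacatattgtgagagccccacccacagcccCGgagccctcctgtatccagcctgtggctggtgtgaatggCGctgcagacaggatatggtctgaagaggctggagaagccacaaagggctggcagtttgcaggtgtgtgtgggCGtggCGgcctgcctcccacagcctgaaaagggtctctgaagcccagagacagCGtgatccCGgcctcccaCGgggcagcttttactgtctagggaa

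**Figure D4:**
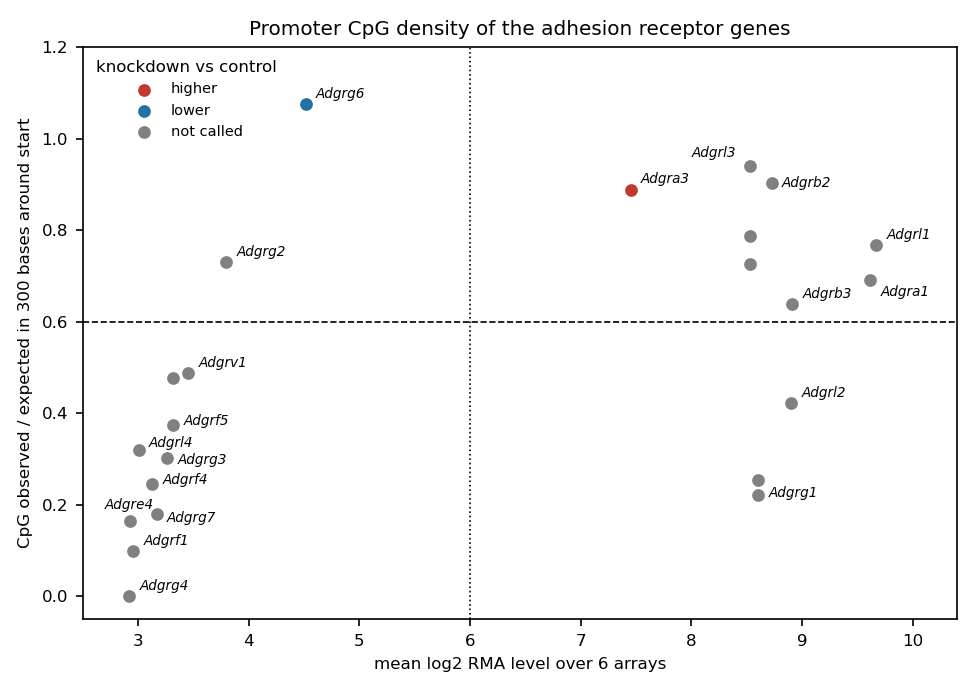
CpG observed over expected in each RefSeq start-site window of 19 adhesion receptor genes against the gene's mean log2 level; points are windows, so Adgrl3 has 3 and Adgrg1 and Adgrf5 have 2 each, and colour gives the call. The dashed line marks a ratio of 0.6 and the dotted line a level of 6; Adgrg6 and Adgrg2 are the dim genes above the dashed line, and Adgrl2 and Adgrg1 the well-expressed genes below it.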

How the data were processed

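The deposited values are log2 levels of probe sets; the submitters' processing notes name RMA and Affymetrix Expression Console 1.2.1.20. RMA normalises arrays to each other, so a shift common to most genes can be hidden, and it compresses weak signals, so folds of dim genes can be understated. Levels of different probe sets are not comparable as amounts of RNA. Of 41345 probe sets, a platform annotation names 1 gene for 23521, several for 1814 and none for 16010; 1082 genes had more than 1 probe set and were represented by the brightest. Knockdown was compared with control over all 22180 genes with limma 3.58.1 (lmFit and eBayes, R 4.3.3) and Benjamini-Hochberg adjustment, and genes were called at an adjusted p under 0.05. The fit without a block was tested on simulated data with independent noise and known changes, all larger than that of Adgra3. It was not a test of the calls given here. In these arrays, deviations from the group means correlated at 0.43, 0.12 and 0.37 across genes for the same-numbered samples, above the bound of 0.1. Between samples of different numbers the correlations ran from -0.38 to 0.06. Deviations cancel out within a group, so the correlations for different numbers are not evidence apart from those for the same numbers. On this basis a fit with the replicate number as a block was run as an alternative, though the labels state no pairing. That block was chosen from the same values that it was used to test, so its p-values may be too small. The main calls and the permutation p-values used no pairing. All members are accounted for; well-expressed members, members and partners that were called and dim members whose groups did not overlap have full values. Other partners were named after their values were seen. The members, the partner list and the marker lists were chosen with earlier results of these data known. Planned identities of the receptor proteins were not computed, as no protein sequences were used here. Figures were drawn with matplotlib 3.10.9.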

Additional observations from a re-analysis of the deposited data

How the results depend on the processing

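Diras2 stayed lower and called under every alternative run. The median difference of the members lay between -0.01 and 0.05 and that of the well-expressed members between 0.03 and 0.20. With RNA integrity as a covariate, members called higher numbered 0. They numbered 2 under the replicate block and under array weights, and 0 with any 1 array left out. Members called lower numbered 2 with quantile normalisation, with an intensity trend and with array weights, 3 at an adjusted p under 0.1, 0 with the RNA integrity covariate, and 0 to 1 with 1 array left out; the 1 with dim genes left out was Adgrg1, since Adgrg6 was not tested there. With the replicate block 7 partner genes were higher; the number was 5 with dim genes left out, 6 with array weights, 6 at an adjusted p under 0.1, 1 with RNA integrity as a covariate, and 0 to 2 with 1 array left out. Partner genes called lower numbered 1 with RNA integrity as a covariate and 1 to 5 with 1 array left out. Adgrl2 changed sign with median centring (0.0033) and with knockdown replicate 1 or control replicate 2 left out (from -0.16 to 0.15 over the arrays left out) and was the only one of the 21 receptors and partners given array by array that did. Of the other members 4 of 11, and of the other measured partners 15 of 55, changed sign under at least 1 alternative; none of these was called, and their log2 differences lay between -0.22 and 0.30. The pairing changed no call of a well-expressed or named member other than Adgrl3. Calls of Elmo1 and Unc5c also ended with quantile normalisation (0.0528 and 0.0557), of Elmo1 with every probe set tested on its own (0.0522), where that of Cntn6 ended too, and of Tenm1 when probe sets of a gene were averaged (0.0519); with RNA integrity as a covariate those of Nrxn3 (0.0806), Cntn6 (0.0935), Cd55 (0.109) and Elmo1 (0.191) ended, at log2 differences of -0.78, -1.07, 0.80 and -0.87. Leaving out an array leaves fewer samples in the fit; for the other settings the cause was not tested.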

Other observations

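Some probe sets stand outside the comparison. A probe set shared by Adgre5, a leukocyte receptor that binds Cd55, and its neighbour Ddx39a, an RNA helicase, had log2 levels of 5.26 ± 0.03 (SD, n = 3) in controls and 5.20 ± 0.13 after knockdown, and its signal cannot be assigned to either gene. A second probe set of Adgrl3 was dim, at 3.67 ± 0.12 and 3.60 ± 0.21, with a log2 difference of 0.08 beside the 0.46 of the brighter one.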
